A study of Mus musculus with 24 samples.

Results

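The 7 genes described here encode enzymes that dispose of reactive quinones, carbonyls, epoxides and aldehydes: Nqo1, Nqo2, Cbr1, Cbr3, Ptgr1, Ephx1 and Aox1. They were taken by name, as the probe sets whose platform annotation gives 1 of these symbols and no other. Each symbol had 1 probe set, so 7 of the 18820 genes measured were followed. Quinone reductases and carbonyl reductases in the strict sense are Nqo1, Nqo2, Cbr1 and Cbr3. Ptgr1 reduces the double bond of unsaturated carbonyls, Ephx1 is a hydrolase and Aox1 an oxidase. Expression was measured on 24 1-colour mouse arrays, 3 for each of 8 groups of tissue and genotype. The tissues were whole liver and primary hepatocytes, which had been released by collagenase perfusion and left to adhere overnight in medium with serum. All mice were 8-week-old males per the labels. Controls were NEMOf/f mice, which carry the floxed NEMO gene. The knockouts were NEMOΔhepa, KEAP1Δhepa and NEMOΔhepa/KEAP1Δhepa (double knockout), made by crossing the floxed alleles with Alfp-Cre, a Cre transgene driven by albumin and alpha-fetoprotein regulatory elements that is active in liver parenchymal cells. The cells of a liver that do not express this Cre keep NEMO and KEAP1, the label of the control group names no floxed KEAP1 allele, and each array is labelled as coming from 1 mouse.

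KEAP1 is an adaptor that brings the transcription factor NRF2 (Nfe2l2) to a ubiquitin ligase, so that NRF2 is degraded; without KEAP1, NRF2 accumulates and activates genes that carry antioxidant response elements. Nqo1, which reduces quinones by a pair of electrons and so bypasses the reactive semiquinone, is the classical target gene of that system, and Cbr1, Cbr3, Ptgr1, Ephx1 and Aox1 have also been described as responsive to it. NEMO, the product of Ikbkg, is the scaffold subunit that the NF-kB activating kinase needs, and its loss in hepatocytes leads to chronic liver injury.

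Start-site sequences are shown for the quinone reductase pair and the carbonyl reductase pair, because the members of each pair are close relatives whose changes with KEAP1 loss are given further on. The sequences are the 250 bases before a transcript start listed in the RefSeq promoter table (GRCm38.p6), written 5′ to 3′ on the gene's own strand. Transcripts of a gene can start at different places, so the windows of Nqo2, Ptgr1 and Aox1 reach 4, 53 and 160 bases into the span given for the gene, and that of the other Nqo2 start lies inside it. Capitals mark matches, on either strand, to GGGCGG (a GC box, the binding site of SP family factors) or GCGTG (the core of the xenobiotic response element bound by the AhR). The windows are chr8:107403206-107403455 on the minus strand for Nqo1 and, on the plus strand, chr13:33964409-33964658 for the first of the 2 listed start sites of Nqo2, chr16:93607587-93607836 for Cbr1 and chr16:93682969-93683218 for Cbr3.
Nqo1: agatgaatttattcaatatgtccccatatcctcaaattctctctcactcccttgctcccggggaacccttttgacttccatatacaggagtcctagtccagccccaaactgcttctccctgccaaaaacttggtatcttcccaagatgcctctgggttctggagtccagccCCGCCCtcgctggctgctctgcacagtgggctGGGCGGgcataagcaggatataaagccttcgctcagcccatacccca
Nqo2: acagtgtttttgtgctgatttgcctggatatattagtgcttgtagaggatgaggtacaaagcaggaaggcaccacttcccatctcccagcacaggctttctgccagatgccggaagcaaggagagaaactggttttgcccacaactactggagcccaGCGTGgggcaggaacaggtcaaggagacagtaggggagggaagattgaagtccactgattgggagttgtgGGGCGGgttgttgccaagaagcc
Cbr1: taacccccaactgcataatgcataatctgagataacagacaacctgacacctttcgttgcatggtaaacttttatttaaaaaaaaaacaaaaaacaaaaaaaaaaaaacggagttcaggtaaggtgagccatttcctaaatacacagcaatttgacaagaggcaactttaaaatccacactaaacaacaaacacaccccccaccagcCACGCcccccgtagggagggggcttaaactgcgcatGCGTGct
Cbr3: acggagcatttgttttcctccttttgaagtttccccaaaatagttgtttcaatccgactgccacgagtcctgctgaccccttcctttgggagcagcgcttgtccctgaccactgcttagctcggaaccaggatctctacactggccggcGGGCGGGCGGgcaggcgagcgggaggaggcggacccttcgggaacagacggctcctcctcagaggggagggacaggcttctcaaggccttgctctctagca
The core of the antioxidant response element, searched as TGACNNNGC on both strands, occurred in these windows for 0 of the 7 genes and in 10.2% of 32851 mouse promoter windows of the same length. That says only that these letters are not within 250 bases before the listed starts. TGANTCA, the related AP-1 site, was found for 1 of the 7 genes, Aox1, and in 6.75% of all windows. GCGTG was found for 3 genes, Nqo2, Cbr1 and Aox1, and in 28.2% of all windows, and GGGCGG for 5 genes, all but Cbr1 and Ephx1, and in 32.7% of all windows. A match is a description of the letters, and binding was not measured.

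Cbr1 and Cbr3 are neighbours on chromosome 16. Cbr1 spans chr16:93607837-93610349 and Cbr3 chr16:93683219-93690991, with 72.9 kb between them and no other protein-coding gene of the RefSeq table in between. The other genes lie apart from each other, Nqo1 at chr8:107388225-107403205, Nqo2 at chr13:33964655-33988465, Ptgr1 at chr4:58965590-58987131, Ephx1 at chr1:180989556-181017569 and Aox1 at chr1:58029809-58106410 (all GRCm38.p6), where Aox1 is followed by its relative Aox3. The positions of the array's probes within these genes were not known.

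All values are deposited log2 levels, on which 1 unit is a doubling, and they ran from 0.51 to 13.62 over all probe sets. Levels of different genes are not compared, since each probe set has its own sensitivity. A change is a difference of log2 group means ± the standard error (SE) of a limma fit with n = 3 arrays per group. It was called where the two-sided p, adjusted by Benjamini-Hochberg over the 18820 genes, was below 0.05. The labels give a mouse and a replicate number for each array, and replicates were taken to be separate mice. The p-values rest on a spread between arrays that all groups of a fit share, so groups that are not compared also enter it.

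4 of the 24 arrays stood apart or went against their labels, and changes of the members that rest on them are given with and without them. Leaving them out reduces the control and the double knockout to 2 arrays in either tissue. The array labelled liver control 3 had the knockout level of NRF2 targets: the cystine carrier gene Slc7a11 was at 9.29 there, against 2.63 and 2.42 on the other liver controls. That array was doubted for the very kind of gene followed here, so leaving it out is not independent of the result. The targeted genes were read from 1 probe set each, and where those probes lie relative to the deleted parts is not known. Ikbkg was at 6.01 to 6.60 on the 12 arrays labelled without NEMO and at 6.63 to 7.20 on 11 of those labelled with it. The array labelled liver control 3 was at 6.40, inside the range of the arrays without NEMO and below the other 11. Keap1 was at 5.38 to 5.94 on the 12 arrays labelled without KEAP1 and at 5.81 to 6.62 on the others, liver control 3 being at 5.88, so these ranges overlapped. Liver double knockout 3 held the fat cell transcript Adipoq at 7.17, which was 2.76 or less elsewhere. Hepatocyte control 1 and hepatocyte double knockout 3 had female-type levels of Xist, 9.65 and 9.76, although males are labelled. The hepatocyte gene Alb was between 13.13 and 13.37 on all arrays, which does not tell liver from hepatocytes. In bulk samples, fewer cells of a type and less RNA per cell cannot be told apart.

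**Figure D1:**
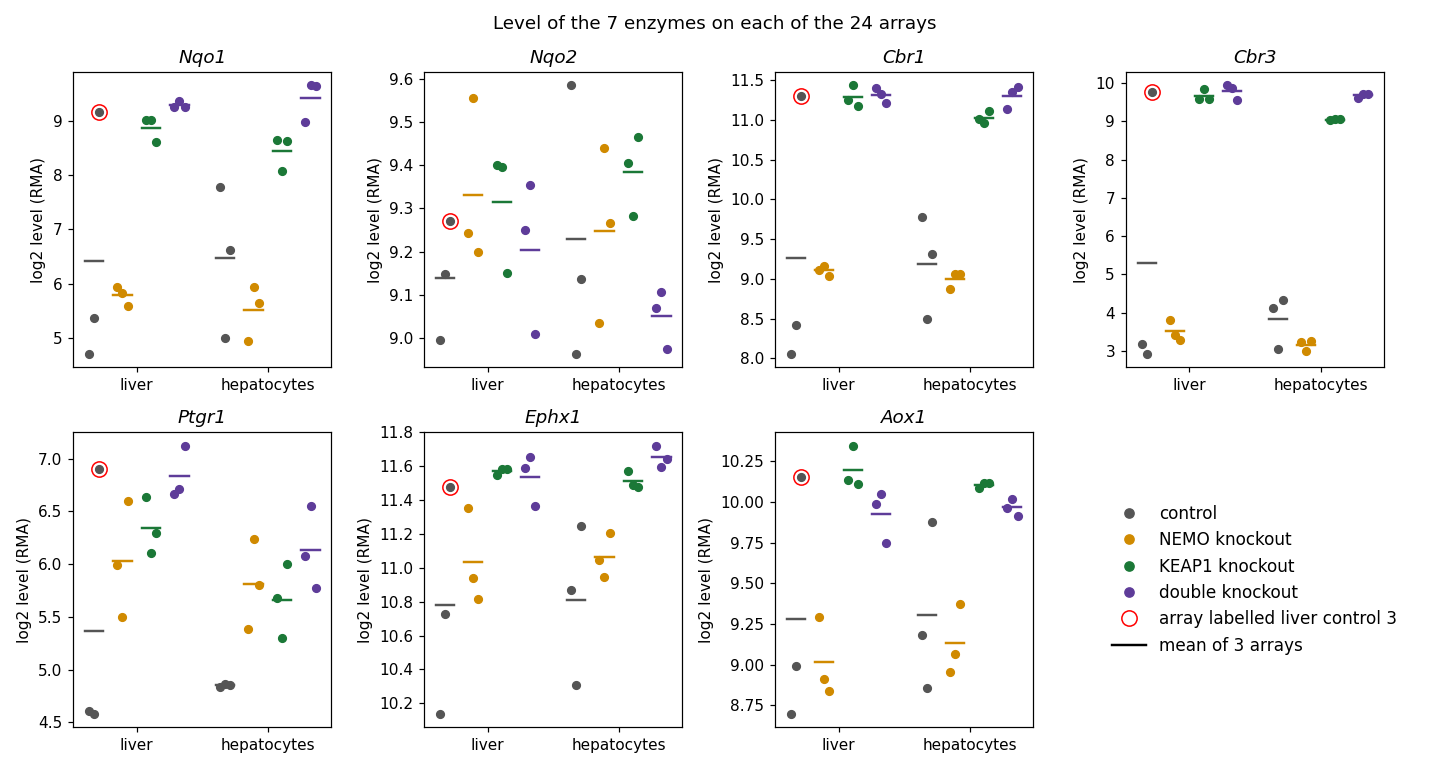
Log2 level of each of the 7 enzymes (vertical axis, 1 panel per gene, scales differ) on the 3 arrays of every group, by tissue and genotype; points are arrays, bars are means of 3 arrays, and the red ring marks the array labelled liver control 3. For Cbr3 the 12 arrays without KEAP1 lie between 9.02 and 9.94, and the other arrays lie at or below 4.32 except the ringed one at 9.76; for Nqo2 all arrays lie between 8.96 and 9.58, and each group overlaps the next in order of mean.

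Nqo1 was high on every array without KEAP1. In hepatocytes it was at 8.65, 8.07 and 8.62 on KEAP1 knockout arrays 1, 2 and 3 and at 8.98, 9.65 and 9.65 on the double knockout arrays. With KEAP1 present it was at 7.77, 5.00 and 6.63 on the hepatocyte controls and at 4.96, 5.94 and 5.64 on the NEMO knockouts. These ranges did not overlap, and the controls spread more widely than any other hepatocyte group. The change was 1.98 ± 0.51 for KEAP1 knockout against control, which missed the threshold (adjusted p = 0.0696), and 3.91 ± 0.51 for double knockout against NEMO knockout, where Nqo1 rose (adjusted p = 0.000918). Without the 4 arrays in doubt, which removes control 1, the first became 2.64 ± 0.41 and passed (adjusted p = 0.00597), and the other became 3.80 ± 0.41 (adjusted p = 0.000284).

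In liver Nqo1 was at 9.01, 9.005 and 8.60 in the KEAP1 knockout and at 9.25, 9.36 and 9.25 in the double knockout. It was at 5.95, 5.84 and 5.58 in the NEMO knockout and at 4.71, 5.37 and 9.17 in the control. Controls 1 and 2 lay below every NEMO knockout array, and control 3 lay among the knockouts of KEAP1. With it, KEAP1 knockout against control was 2.46 ± 0.80 (adjusted p = 0.617); without the arrays in doubt Nqo1 rose by 3.83 ± 0.19 (adjusted p = 3.86e-07). Double knockout against NEMO knockout, which does not use the controls' mean but shares their spread, was 3.50 ± 0.80 (adjusted p = 0.067), and leaving out the arrays in doubt gave 3.52 ± 0.19 (adjusted p = 1.03e-06). In order, the groups ran from hepatocyte double knockout (9.43 ± 0.39, SD) and liver double knockout (9.29 ± 0.06), which overlapped, over liver KEAP1 knockout (8.87 ± 0.23) and hepatocyte KEAP1 knockout (8.45 ± 0.32), which overlapped, down to the 4 groups with KEAP1. The lowest with all arrays were liver NEMO knockout (5.79 ± 0.19) and hepatocyte NEMO knockout (5.51 ± 0.51). Without the arrays in doubt the liver control mean was 5.04, below both, and the hepatocyte control mean was 5.81.

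Nqo2, which uses dihydronicotinamide riboside in place of NADH or NADPH as its electron donor, stayed within a narrow range. Across all 24 arrays it stayed between 8.96 and 9.58. In hepatocytes it was at 9.58, 8.96 and 9.14 in the control, 9.41, 9.28 and 9.47 in the KEAP1 knockout, 9.04, 9.44 and 9.27 in the NEMO knockout and 9.07, 9.11 and 8.97 in the double knockout. In liver it was at 8.997, 9.15 and 9.27 in the control, 9.40, 9.39 and 9.15 in the KEAP1 knockout, 9.24, 9.55 and 9.20 in the NEMO knockout and 9.25, 9.35 and 9.01 in the double knockout. Each group overlapped the next in order of mean. Groups farther apart in that order did not all overlap: in hepatocytes every double knockout array lay below every KEAP1 knockout array, a difference of -0.33 ± 0.14 (95% interval -0.64 to -0.03) that did not pass over all genes (adjusted p = 0.283). KEAP1 knockout against control was 0.18 ± 0.13 in liver (95% interval -0.10 to 0.45, adjusted p = 0.722) and 0.16 ± 0.14 in hepatocytes (adjusted p = 0.698), and double knockout against NEMO knockout was -0.13 ± 0.13 and -0.20 ± 0.14 (adjusted p = 0.789 and 0.539). Nqo2 was called in none of the 18 comparisons, with all arrays or without the 4 in doubt.

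Cbr1, the main cytosolic carbonyl reductase, rose with KEAP1 loss in hepatocytes. It was at 9.78, 8.49 and 9.31 in control hepatocytes and at 11.02, 10.96 and 11.11 in the KEAP1 knockout, with no overlap. It was at 8.87, 9.07 and 9.06 in the NEMO knockout and at 11.13, 11.35 and 11.41 in the double knockout, again with no overlap. The changes were 1.84 ± 0.23 for KEAP1 knockout against control (adjusted p = 0.00108) and 2.30 ± 0.23 for double knockout against NEMO knockout (adjusted p = 9.24e-05). Both stayed called without any 1 of the arrays compared, and leaving out the 4 arrays in doubt gave 2.13 ± 0.18 (adjusted p = 7.79e-05) and 2.24 ± 0.18 (adjusted p = 2.05e-05). The KEAP1 knockout and the double knockout were at 11.03 ± 0.08 and 11.30 ± 0.15 (SD, n = 3). They did not overlap, and differed by 0.27 ± 0.23 (95% interval -0.22 to 0.75, adjusted p = 0.662).

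In liver Cbr1 was likewise high on all arrays without KEAP1. Cbr1 was at 11.25, 11.43 and 11.17 in the KEAP1 knockout, 11.39, 11.33 and 11.21 in the double knockout and 9.11, 9.17 and 9.04 in the NEMO knockout. The controls were at 8.06, 8.43 and 11.30, so controls 1 and 2 lay below the NEMO knockouts and control 3 at the level without KEAP1. The change from control to KEAP1 knockout was 2.02 ± 0.59 with all arrays (adjusted p = 0.617), and leaving out the arrays in doubt gave 3.04 ± 0.11 (adjusted p = 3.09e-08). Double knockout against NEMO knockout was 2.20 ± 0.59 (adjusted p = 0.116) and 2.26 ± 0.11 (adjusted p = 6.48e-07).

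Cbr3, the inducible relative of Cbr1, had the widest range of the 7 genes. On hepatocyte arrays it was at 4.11, 3.04 and 4.32 in the control and at 3.22, 3.00 and 3.26 in the NEMO knockout. It was at 9.02, 9.05 and 9.06 in the KEAP1 knockout and at 9.60, 9.71 and 9.72 in the double knockout. The groups with and without KEAP1 were far apart, and the double knockouts all lay above the KEAP1 knockouts. The values with KEAP1 were low, around or below the array medians of 4.03 to 4.23. Changes of Cbr3 that start from such levels, and its interaction, rest in part on these low values. Cbr3 rose by 5.22 ± 0.24 in the KEAP1 knockout against control (adjusted p = 2.54e-07) and by 6.52 ± 0.24 in the double knockout against NEMO knockout (adjusted p = 1.51e-08). Leaving out the arrays in doubt gave 5.37 ± 0.27 (adjusted p = 1.03e-06) and 6.49 ± 0.27 (adjusted p = 1.08e-07). The step between the KEAP1 knockout and the double knockout was 0.63 ± 0.24 (95% interval 0.11 to 1.15) and did not pass over all genes (adjusted p = 0.221). The interaction, which asks whether the step from control to KEAP1 knockout differs from the step from NEMO knockout to double knockout, was 1.30 ± 0.34 and did not pass either (adjusted p = 0.207). Those arrays left out, the step was 0.61 ± 0.27 (adjusted p = 0.287) and the interaction 1.13 ± 0.38 (adjusted p = 0.398). The step passed in a limma fit of only the groups compared (adjusted p = 0.00499).

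In liver Cbr3 was at 9.57, 9.85 and 9.57 in the KEAP1 knockout and at 9.94, 9.86 and 9.55 in the double knockout. It was at 3.82, 3.40 and 3.30 in the NEMO knockout and at 3.19, 2.92 and 9.76 in the control, where array 3 again stood with the arrays lacking KEAP1. Double knockout against NEMO knockout was 6.28 ± 1.29, and it was called with all arrays (adjusted p = 0.0413). That call was lost when any 1 of the 6 arrays compared was left out (adjusted p up to 0.157), and it passed without the 4 arrays in doubt (6.40 ± 0.16, adjusted p = 1.25e-09). From control to KEAP1 knockout the change was 4.38 ± 1.29 with all arrays (adjusted p = 0.617) and leaving out those in doubt gave 6.61 ± 0.16 (adjusted p = 8.49e-10).

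Ptgr1, which inactivates leukotriene B4 and reduces prostaglandin metabolites and other unsaturated carbonyls, lay above the controls in each knockout group of hepatocytes, with or without KEAP1. In hepatocytes it was at 4.83, 4.86 and 4.85 in the control and at 5.39, 6.24 and 5.80 in the NEMO knockout. It was at 5.68, 5.30 and 6.00 in the KEAP1 knockout and at 6.08, 6.55 and 5.77 in the double knockout. All 9 knockout arrays lay above the 3 controls, and the 3 knockout groups overlapped one another. Ptgr1 rose by 0.96 ± 0.24 in the NEMO knockout (adjusted p = 0.0272) and, in the double knockout, by 1.29 ± 0.24 relative to control (adjusted p = 0.00332). The NEMO knockout call was kept in 1 of the 6 fits that left out an array (adjusted p up to 0.117). KEAP1 knockout against control was 0.81 ± 0.24 (adjusted p = 0.12), and double knockout against NEMO knockout was 0.33 ± 0.24 (95% interval -0.18 to 0.84, adjusted p = 0.544). With the arrays in doubt left out, the NEMO knockout and the double knockout were 0.95 ± 0.25 (adjusted p = 0.048) and 1.46 ± 0.28 (adjusted p = 0.00529) above control. The KEAP1 knockout was then 0.80 ± 0.25 above control (adjusted p = 0.163), and double knockout against NEMO knockout was 0.51 ± 0.25 (adjusted p = 0.348).

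In liver Ptgr1 was at 4.61, 4.58 and 6.90 in the control and at 5.99, 5.50 and 6.60 in the NEMO knockout. It was at 6.64, 6.10 and 6.30 in the KEAP1 knockout and at 6.66, 6.72 and 7.13 in the double knockout. Liver controls 1 and 2 lay below all 9 knockout arrays and the doubted control 3 lay among them. With all arrays no change in liver passed. Without the arrays in doubt Ptgr1 rose by 1.75 ± 0.25 in the KEAP1 knockout (adjusted p = 0.00223) and by 1.44 ± 0.25 in the NEMO knockout (adjusted p = 0.00345) against control, and double knockout against NEMO knockout was 0.66 ± 0.25 (adjusted p = 0.228). The interaction was -1.09 then and did not pass (adjusted p = 0.195).

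Ephx1, the microsomal epoxide hydrolase, lay between 10.14 and 11.72 on the 24 arrays. On hepatocyte arrays it was at 10.87, 10.31 and 11.25 in the control and at 11.57, 11.49 and 11.48 in the KEAP1 knockout. It was at 11.05, 10.95 and 11.21 in the NEMO knockout and at 11.72, 11.59 and 11.64 in the double knockout. The groups with and without KEAP1 did not overlap, yet the changes missed the threshold, at 0.71 ± 0.17 (adjusted p = 0.0527) and 0.59 ± 0.17 (adjusted p = 0.0805). Double knockout against control was 0.84 ± 0.17 and passed (adjusted p = 0.00578). Fitted without the arrays in doubt, these 3 changes were 0.74 ± 0.19, 0.59 ± 0.19 and 0.88 ± 0.21 (adjusted p = 0.0871, 0.129 and 0.0208). In liver Ephx1 was at 10.14, 10.73 and 11.48 in the control, 11.55, 11.58 and 11.58 in the KEAP1 knockout, 11.36, 10.94 and 10.82 in the NEMO knockout and 11.59, 11.66 and 11.36 in the double knockout. KEAP1 knockout against control was 0.79 ± 0.25 there (adjusted p = 0.617), and leaving out the arrays in doubt gave 1.14 ± 0.17 (adjusted p = 0.00275), and double knockout against NEMO knockout was 0.50 ± 0.25 and 0.59 ± 0.17 (adjusted p = 0.485 and 0.0917).

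Aox1, a molybdenum enzyme that oxidises aldehydes and nitrogen heterocycles, lay higher without KEAP1, with changes of 0.80 to 0.92 in the 4 comparisons of KEAP1 loss. Hepatocytes had it at 9.18, 8.86 and 9.88 in the control and at 10.09, 10.12 and 10.12 in the KEAP1 knockout. It was at 8.95, 9.07 and 9.37 in the NEMO knockout and at 9.96, 10.02 and 9.92 in the double knockout. The groups compared did not overlap, with control 3 closest to the KEAP1 knockouts. Aox1 rose by 0.84 ± 0.19 in the double knockout against NEMO knockout (adjusted p = 0.0319), a call kept in 1 of the 6 fits without an array (adjusted p up to 0.117), and KEAP1 knockout against control was 0.80 ± 0.19 (adjusted p = 0.0532). Fitted without the arrays in doubt, they were 0.86 ± 0.22 (adjusted p = 0.0493) and 0.74 ± 0.22 (adjusted p = 0.135). In liver it was at 8.70, 8.99 and 10.16 in the control, 10.14, 10.35 and 10.11 in the KEAP1 knockout, 9.29, 8.91 and 8.84 in the NEMO knockout and 9.99, 10.05 and 9.75 in the double knockout. Between control and KEAP1 knockout the change was 0.92 ± 0.28 (adjusted p = 0.617), and leaving out the arrays in doubt gave 1.35 ± 0.14 (adjusted p = 0.000204), and double knockout against NEMO knockout was 0.91 ± 0.28 (adjusted p = 0.188) and 1.00 ± 0.14 (adjusted p = 0.00168).

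Set against the share of all genes, the effect of KEAP1 loss in hepatocytes read as follows. For KEAP1 knockout against control 2 of the 7 genes were called, Cbr1 and Cbr3, both higher, where 1.87% of all genes were called and 1.45% were higher. In double knockout against NEMO knockout 4 of 7 were called, Nqo1, Cbr1, Cbr3 and Aox1, all higher, where 3.32% of all genes were called and 2.16% were higher. Without the 4 arrays in doubt the counts were 3 of 7, with Nqo1 added (1.82% of all genes, 1.34% higher), and 4 of 7 (3.8%, 2.39% higher). These 2 comparisons share no array, although the fit estimates 1 spread for both.

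In liver the corresponding counts rested on the doubted arrays. KEAP1 knockout against control gave 0 of 7 with limma on all arrays, where 0% of all genes were called and 1447 genes had an unadjusted p below 0.05. Without the arrays in doubt it gave 6 of 7, all but Nqo2, all higher (5.26% of all genes called, 3.71% higher). Liver control 3 was doubted for genes of this kind, so liver counts against control without it are not independent of leaving it out. Double knockout against NEMO knockout gave 1 of 7, Cbr3 (1.05% of all genes, 0.414% higher), and 4 of 7 without the arrays in doubt, Nqo1, Cbr1, Cbr3 and Aox1 (3.46%, 1.92% higher). Double knockout against control gave 0 of 7 (0.00531% of all genes) and 6 of 7 without those arrays (9.2%, 6.37% higher). In hepatocytes double knockout against control gave 6 of 7, all but Nqo2 (9.72% of all genes, 6.73% higher), and 5 of 7 without the arrays in doubt (9.23%, 6.44% higher), Aox1 being lost (0.66 ± 0.19 with all arrays, adjusted p = 0.0463, and 0.141 without them). This comparison shares its control arrays with KEAP1 knockout against control.

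**Figure D2:**
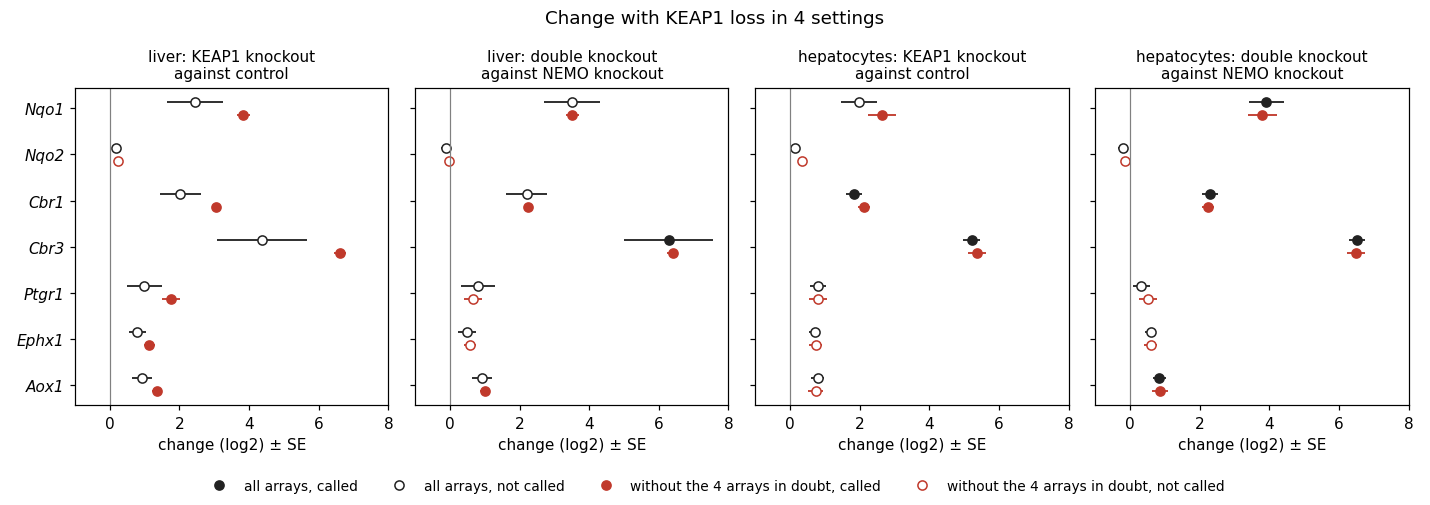
Change in log2 level (horizontal axis) ± SE of the limma fit for each enzyme with KEAP1 loss, in 4 panels by tissue and by the presence of NEMO; black points use all arrays, red points leave out the 4 arrays in doubt, and filled points were called. Cbr3 lies farthest to the right, at 5.22 and 6.52 in hepatocytes, Nqo2 lies next to 0 in all 4 panels, and the liver SE shrinks without the doubted arrays, from 1.29 to 0.16 for Cbr3.

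Over all samples, the 12 arrays without KEAP1 could be set against the 12 with it. Nqo1 ran from 8.07 to 9.65 (median 9.01) without KEAP1 and from 4.71 to 9.17 (median 5.74) with it. Cbr3 ran from 9.02 to 9.94 (median 9.59) and from 2.92 to 9.76 (median 3.28). For Nqo1, Cbr1, Cbr3 and Ephx1, 1 of the 12 arrays with KEAP1 reached the lowest array without it, and that was the array labelled liver control 3. For Aox1 it was 2 of 12, hepatocyte control 3 in addition. For Ptgr1 it was 7 of 12, among them all 6 NEMO knockout arrays, and for Nqo2 11 of 12. Once that 1 array was left out, Nqo1, Cbr1, Cbr3 and Ephx1 did not overlap between arrays with and without KEAP1. It was doubted for this kind of gene, so leaving it out is not independent of this separation. How many of all genes separate in this way was not counted.

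With loss of NEMO alone, the count of called genes in liver depended on the arrays in doubt. In hepatocytes Ptgr1 was the 1 of 7 called against control (6.65% of all genes called, 4.61% higher), and it was the 1 of 7 without the arrays in doubt too (5.58%, 4.14% higher). The changes of the others there were -0.95 ± 0.51 for Nqo1 (adjusted p = 0.337) and -0.66 ± 0.24 for Cbr3 (adjusted p = 0.137). Both groups had low values of Cbr3. The changes of the rest were between -0.19 and 0.26. In liver 0 of 7 were called (1.33% of all genes; 3379 genes had an unadjusted p below 0.05). Without the arrays in doubt 4 of 7 rose in NEMO knockout liver (12% of all genes called, 8.48% higher): Nqo1 by 0.75 ± 0.19 (adjusted p = 0.0236), Cbr1 by 0.86 ± 0.11 (adjusted p = 0.000672), Ptgr1 by 1.44 ± 0.25 and Ephx1 by 0.60 ± 0.17 (adjusted p = 0.0377). For Nqo1 and Cbr1 that direction is the reverse of the one with all arrays, -0.63 ± 0.80 and -0.15 ± 0.59, and it turned with the array labelled liver control 3. NRF2's own transcript Nfe2l2 was higher in the NEMO knockout in liver, by 1.10 ± 0.11 (adjusted p = 0.000949), and in hepatocytes, by 0.73 ± 0.15 (adjusted p = 0.00853). Some markers of other liver cells moved with this liver result. The summed log2 level of the stellate cell markers was 10.48 to 11.57 on control and 11.88 to 12.31 on NEMO knockout liver arrays, without overlap. The macrophage sums overlapped, at 10.47 to 11.42 on control and 11.27 to 11.37 on NEMO knockout liver arrays. So did the endothelial sums, at 10.09 to 11.04 and 10.72 to 10.80. With all arrays 1 of 9 stellate, 1 of 8 macrophage and 0 of 7 endothelial markers were higher in NEMO knockout liver, and without the arrays in doubt 8 of 9, 7 of 8 and 1 of 7. Their part in the rise of the 4 enzymes was not tested.

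Loss of NEMO on top of KEAP1 loss gave 0 of 7 calls in liver (0% of all genes, 1429 with an unadjusted p below 0.05) and 0 of 7 in hepatocytes (2.75%; 2777 with an unadjusted p below 0.05). Without the arrays in doubt both counts were 0 as well (0.0531% and 3.78%). In hepatocytes Nqo1 was at 0.98 ± 0.51 (95% interval -0.12 to 2.07, adjusted p = 0.408) and Cbr3 at 0.63. A limma fit of only the groups compared called both of them there (adjusted p = 0.0487 for Nqo1 and 0.00499 for Cbr3). The share of all genes called in that fit was not counted. In liver Nqo1 was at 0.41 ± 0.80 (95% interval -1.34 to 2.16, adjusted p = 0.905) and Cbr3 at 0.12 ± 1.29 (adjusted p = 0.986). These SEs are wide because the fit shares the spread of the liver controls, which are not compared here. Without the arrays in doubt Nqo1 was at 0.43 ± 0.19 (adjusted p = 0.657) and Cbr3 at 0.24 ± 0.16 (adjusted p = 0.823). The interaction was called for 0 of 7 in either tissue (0.0106% of all genes in liver with 952 at an unadjusted p below 0.05, and 0.0425% in hepatocytes with 1869). In hepatocytes it was 1.93 ± 0.72 for Nqo1 (adjusted p = 0.395). Without the arrays in doubt the lowest adjusted p of the liver interaction was that of Cbr1, at -0.79 (adjusted p = 0.0556; 0.345% of all genes called).

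With all arrays, and without the 4 in doubt, none of the 7 enzymes was called between cultured hepatocytes and liver. Hepatocytes against liver of the same genotype, in a fit of all 24 arrays, gave 0 of 7 in control (5.13% of all genes called), KEAP1 knockout (2.49%), NEMO knockout (3.77%) and double knockout (2.24%). The numbers of genes with an unadjusted p below 0.05 were 3205, 2955, 3820 and 3191. Without the 4 arrays in doubt the counts were again 0 of 7 in each genotype, where 3.06%, 6.47%, 7.86% and 0.792% of all genes were called. In the KEAP1 knockout Cbr3 was at 9.04 ± 0.02 in hepatocytes and 9.66 ± 0.16 in liver (SD, n = 3), without overlap. The difference was -0.62 with an SE of 1.00 in the fit of all arrays (adjusted p = 0.821) and an SE of 0.21 without the arrays in doubt (adjusted p = 0.103). The test of the difference itself, the change in hepatocytes minus the change in liver, gave 0 of 7 for KEAP1 knockout against control (0% of all genes, 1069 with an unadjusted p below 0.05) and 0 of 7 for double knockout against NEMO knockout (0%, 879), and 0 of 7 in both without the arrays in doubt (0.0106% and 0.0159% of all genes). For Nqo1 these differences were -0.47 (95% interval -2.63 to 1.69) and 0.41 (-1.75 to 2.58).

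The 7 genes differed in how closely their levels ran with one another and with other genes over the 24 arrays. These correlations rest on shared groups and are a description. Nqo1 and Cbr1 had r = 0.98 with each other, Cbr1 and Cbr3 0.98, and Nqo1 and Cbr3 0.96. Aox1 had 0.90 with Nqo1, Ephx1 0.84, Ptgr1 0.62, and Nqo2 0.14. The 3 other genes nearest to Cbr3 were the glutamate carrier Slc1a1 (r = 0.99), the biliverdin reductase Blvrb (0.99) and the efflux pump Abcc4 (0.98). Nearest to Nqo1 besides Cbr1 were the glycogen branching enzyme Gbe1 and Spatc1 (both 0.98), and nearest to Cbr1 besides Nqo1 and Cbr3 was Entpd5 (0.98). For Aox1 they were Ugt2b35 (0.96), D630045J12Rik (0.95) and Pgrmc1 (0.95), and for Ephx1 Mir692-1 (0.94), the UDP-glucose dehydrogenase Ugdh (0.93) and Creg1 (0.92). For Ptgr1 they were Ano10 (0.91), the histamine methyltransferase Hnmt (0.90) and Adss (0.90). Nqo2 had no close partner, the nearest being Pcyox1 (0.70), Sar1b (0.68) and Ap4s1 (0.67).

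Related enzymes were called in both directions. Of 28 further reductases, oxidases and epoxide hydrolases listed (among them other carbonyl reductases, aldo-keto reductases, short-chain dehydrogenases and aldehyde oxidases), 24 were measured. In KEAP1 knockout hepatocytes against control 2 of the 24 rose and 1 fell, with a median change of 0.11 against -0.0033 over all genes, of which 1.87% were called. The aldo-keto reductases Akr1b8 and Akr1a1 rose, by 1.10 ± 0.25 (adjusted p = 0.0431) and 0.42 ± 0.09 (adjusted p = 0.0449), and the short-chain dehydrogenase Dhrs7 fell by 1.08 ± 0.25 (adjusted p = 0.0497). In double knockout against NEMO knockout 2 rose and 1 fell, Cbr4 by 0.57 ± 0.14 (adjusted p = 0.0476), Akr7a5 by 0.35 ± 0.07 (adjusted p = 0.0205) and Dhrs1 at -0.42 ± 0.09 (adjusted p = 0.019), with a median of 0.11, where 3.32% of all genes were called. Cbr4 is a mitochondrial carbonyl reductase. In NEMO knockout against control 2 rose and 3 fell, where 6.65% of all genes were called. The rise was 1.74 ± 0.25 for Akr1b8 (adjusted p = 0.000836) and 1.01 ± 0.20 for Akr1b10 (adjusted p = 0.00692). The genes that fell were Dcxr, a xylulose reductase, at -0.58 ± 0.15 (adjusted p = 0.0395), Hsd11b1, which regenerates active glucocorticoid, at -0.42 ± 0.11 (adjusted p = 0.0441), and Akr7a5 at -0.37 ± 0.07 (adjusted p = 0.0075). Leaving out the arrays in doubt, the counts higher and lower were 1 and 1 in KEAP1 knockout against control, 2 and 2 in double knockout against NEMO knockout, and 2 and 1 in NEMO knockout against control, where Dcxr and Hsd11b1 were lost (adjusted p = 0.0929 and 0.106). Aox3, the neighbour of Aox1, was at -0.44 ± 0.23 in KEAP1 knockout liver against control with all arrays (adjusted p = 0.656) and at -0.67 ± 0.15 without those in doubt (adjusted p = 0.0217). In hepatocytes Aox3 was at 0.23 (adjusted p = 0.773) and -0.13 ± 0.15 (adjusted p = 0.803).

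Of 30 other NRF2 targets listed, 27 were measured. In hepatocytes, against 1.45% and 2.16% of all genes called higher in the same comparisons, 12 and 19 of the 27 rose with KEAP1 loss. In KEAP1 knockout against control 0 fell (median change 0.54), and the rise was led by the glutathione peroxidase Gpx2 (3.74 ± 0.45), Abcc4 (3.10 ± 0.33), Slc7a11 (2.49 ± 0.37) and the glutathione transferase Gstm3 (1.57 ± 0.36; adjusted p from 0.000412 to 0.0463). In double knockout against NEMO knockout 0 fell (median 0.79), and the rise was led by Gpx2 (6.06 ± 0.45), Slc7a11 (6.03 ± 0.37), Abcc4 (5.44 ± 0.33) and the sulfiredoxin Srxn1 (2.12 ± 0.17; adjusted p from 1.42e-06 to 1.78e-05). The hepatocyte counts without the arrays in doubt were 14 higher and 0 lower, and 19 higher and 1 lower, the aldehyde dehydrogenase Aldh3a2 (-0.60 ± 0.13, adjusted p = 0.022), while Gstm3 was called in the former comparison (1.91 ± 0.36, adjusted p = 0.0183). In liver with all arrays 0 of 27 were called in KEAP1 knockout against control (0% of all genes), and 6 rose and 0 fell in double knockout against NEMO knockout (1.05%). Leaving out those in doubt, 20 rose and 0 fell (5.26% of all genes called), and 19 rose and 0 fell (3.46%). Since liver control 3 was doubted for genes of this list, Slc7a11 among them, the count of 20 is not independent of leaving it out. A list of targets of the receptors AhR and CAR, which also act on several of these enzymes, also held the receptor genes Ahr, Nr1i3 and Nr1i2. Of its 10 measured genes 1 rose in KEAP1 knockout hepatocytes against control (1.45% of all genes higher), Cyp1a2 (0.54 ± 0.10, adjusted p = 0.0114). In double knockout against NEMO knockout 2 rose (2.16% of all genes higher), Cyp1a1 (0.77 ± 0.16, adjusted p = 0.0172) and Cyp1a2 (0.71 ± 0.10, adjusted p = 0.00123). In either comparison 0 of the 10 fell.

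**Figure D3:**
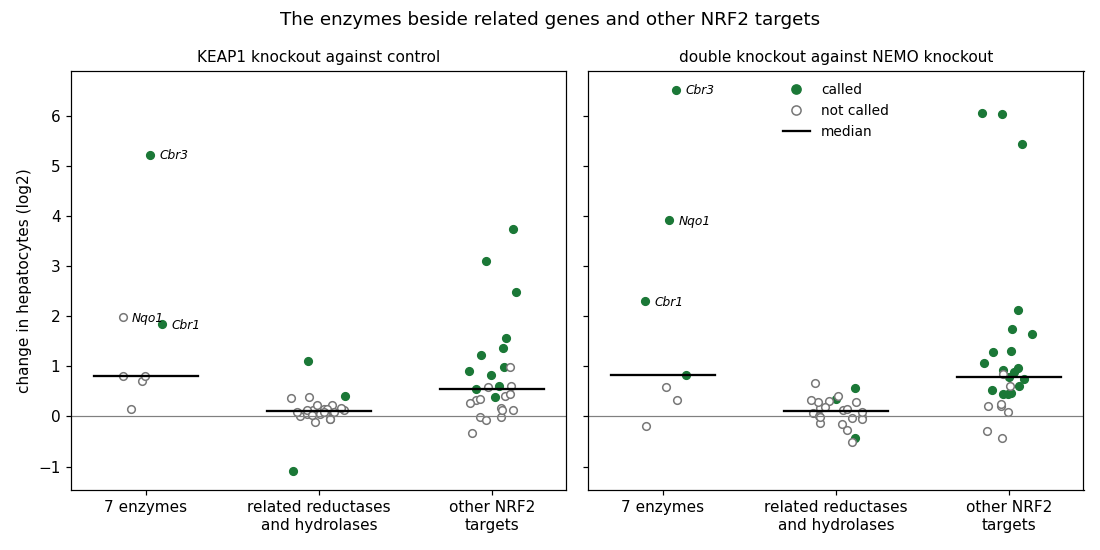
Change in log2 level in hepatocytes (vertical axis) of the 7 enzymes, 24 related reductases and hydrolases, and 27 other NRF2 targets, for KEAP1 knockout against control and for double knockout against NEMO knockout; each point is a gene, filled points were called, and bars are medians. The related enzymes cluster around 0 with medians of 0.11 in both panels, while the other NRF2 targets have medians of 0.54 and 0.79.

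Transcripts of other liver cells moved with the hepatocyte groups. In KEAP1 knockout hepatocytes against control 6 of 7 endothelial, 2 of 8 macrophage and 2 of 9 stellate cell markers were higher. The summed log2 level of the endothelial markers was 8.39 to 9.32 on control arrays, 9.86 to 10.40 on KEAP1 knockout, 10.35 to 10.68 on NEMO knockout and 10.60 to 10.76 on double knockout arrays. For double knockout against NEMO knockout the counts higher were 1 of 7, 1 of 8 and 0 of 9. For NEMO knockout against control they were 6 of 7, 8 of 8 and 8 of 9, with macrophage sums of 8.73 to 9.91 on control and 10.76 to 11.28 on NEMO knockout arrays and stellate sums of 8.09 to 8.78 and 10.60 to 10.89. The part of these cells in the rise of Ptgr1 in that comparison was not tested. Nor was their part in the changes of KEAP1 knockout against control or of double knockout against NEMO knockout. The counts higher without the arrays in doubt were 5 of 7, 0 of 8 and 2 of 9 for KEAP1 knockout against control, 0 of 7, 1 of 8 and 0 of 9 for double knockout against NEMO knockout, and 6 of 7, 8 of 8 and 8 of 9 for NEMO knockout against control. In liver without those arrays 3 of 7, 2 of 8 and 5 of 9 were higher in KEAP1 knockout against control, beside the 6 enzymes called there, and 0 of each in double knockout against NEMO knockout. Their part in the liver changes was not tested. Of the 8 hepatocyte markers 0 were called in these 3 comparisons.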

How the data were processed

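Arrays of 24 samples were analysed, 3 in each of 8 groups, from log2 levels per probe set that the authors deposited. RMA is the method named in the submitters' processing notes; the sources used here do not give its version or the array's genome build. Of 35556 probe sets, 21218 had 1 symbol in the platform annotation, 1881 had several and 12457 were not listed; only the first were used, and 1386 genes with several probe sets were represented by the one of highest mean. Symbols were checked against RefSeq (GRCm38.p6), which changed 0. Array medians lay between 4.03 and 4.23, with low values left in. For arrays, 3 per group limit the precision.

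Tests used lmFit and eBayes with an intensity trend (limma 3.58.1, R 4.3.3), two-sided, adjusted by Benjamini-Hochberg over 18820 genes, within the 12 arrays of a tissue or, between tissues, over all 24. The scripts were tested on simulated data. Arrays with the same replicate number deviated together only for liver control and liver double knockout (r = 0.115, 0.136 and 0.23 between their residuals). That pairing was read from the data, and the labels give no shared animal or day. The members and gene lists were chosen with earlier results of these data known. Beyond the members, named genes are the 3 nearest to each member by correlation over the arrays and, per list and comparison, at most 4 called genes of largest change, with Nfe2l2, Keap1 and Ikbkg as label checks. Slc7a11, Adipoq and Xist were named for the arrays in doubt after their values were seen. Where the Keap1 and Ikbkg probes lie relative to the deleted parts is not known, which limits them as a check of labels. Akr7a5 and Aldh3a2 were named to complete a count, and Aox3 as the neighbour of Aox1, after their values were seen. Alternatives were quantile normalization, the mean of probe sets, a filter (above 5 on at least 3 arrays), no intensity trend, only the groups compared, the replicate number as a block, leaving out the 4 arrays in doubt and leaving out each array. Promoter windows and gene positions were taken from RefSeq tables, in which all 7 genes were found.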

Additional observations from a re-analysis of the deposited data

How the results depend on the processing

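The counts of called members were recomputed under 256 alternatives over 18 comparisons, and 228 stayed within 1.5 times the reported count. For most of these comparisons the reported count was 0, and staying within that limit then means that it remained 0. Of 14 member changes called with all arrays, 10 stayed called without any 1 array compared. Without the 4 arrays in doubt the count went from 0 to 6 for liver KEAP1 knockout against control, from 1 to 4 for liver double knockout against NEMO knockout, from 0 to 4 for liver NEMO knockout against control and from 0 to 6 for liver double knockout against control. For liver double knockout against NEMO knockout it was 2 with quantile normalization, 0 without the intensity trend and 4 with only the groups compared. For hepatocyte KEAP1 knockout against control it went from 2 to 4 with the filter on low values and to 4 with the replicate block (Ephx1 and Aox1 gained), but the numbers do not pair those arrays (r = -0.00115, 0.135 and 0.0111 between residuals). With only the groups compared it was 2 for hepatocyte double knockout against KEAP1 knockout, namely Nqo1 and Cbr3. It was 1, Cbr3, for KEAP1 knockout hepatocytes against liver, and both counts were 0 before. The replicate block moved no other count by over 1.5 times.

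With each array left out in turn, the count ranged from 0 to 6 for liver KEAP1 knockout against control and for liver double knockout against control, 0 to 3 for liver NEMO knockout against control and 0 to 1 for control hepatocytes against liver, the highest in each case without liver control 3. It was 0 to 0 for liver double knockout against NEMO knockout, 2 to 4 for hepatocyte KEAP1 knockout against control (4 without hepatocyte control 3), and 0 to 3 for hepatocyte NEMO knockout against control and 0 to 2 for the interaction in hepatocytes, each highest without hepatocyte control 2. For hepatocyte double knockout it was 3 to 4 against NEMO knockout and 5 to 6 against control. NEMO knockout against control in liver reversed for Nqo1 (0.75) and Cbr1 (0.86) without the 4 arrays and without liver control 3 alone (adjusted p = 0.034 and 0.00242 then); with each array left out in turn they ranged from -1.48 to 0.75 and from -0.76 to 0.86. Control hepatocytes against liver reversed for Cbr1 without liver control 3 (0.95, adjusted p = 0.0149), with a range of -0.67 to 0.95. Of the uncalled values, 105 changed sign under an alternative. The cause of these shifts was not tested, except that leaving out liver control 3 alone gave them where it is named.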
